A study of Mus musculus with 12 samples.

Results

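The genes of oxidative phosphorylation were followed by RNA sequencing in the thyroid of affected and unaffected mice. Members were the gene names that carry the prefixes of the respiratory complexes, namely Nduf with a letter and number, *Sdha* to *Sdhd*, Uqcr, Cox4 to Cox8, Atp5, and the mt- protein genes, without names holding -ps. The rule found 98 of the 55536 genes in the deposited table, of which 85 lie in the nuclear genome and 13 in the mitochondrial genome. By name, the nuclear genes split into 36 of complex I, 4 of complex II, 8 of complex III, 19 of complex IV and 18 of complex V, and the mt- genes into 7, 0, 1, 3 and 2. The name does not always give the place in the chain: *Ndufa4* is now counted with complex IV, *Cox7a2l* is a supercomplex factor, and the subunit genes *Ndufab1* and *Cyc1* are not matched. The edgeR filter on low counts kept 81 of the 85 nuclear genes and all 13 mt- genes. The 4 genes left out were *Cox6c2* (a processed pseudogene), *Cox8c*, *Cox7b2* and a second entry named *Atp5o*, each at 0 or 1 count in every mouse.

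The thyroids came from 5 affected B6NTac mice (replicates 1, 3, 4, 5 and 6), 6 unaffected B6NCrl mice (replicates 21 to 26) and, as replicate 14, a single unaffected animal from a B6NTac mutant strain, with 1 library per mouse. Affected mice are those labelled with thyroid dysplasia, which the study traced to a LINE-1 element inside *Tg*, the gene of thyroglobulin. The labels give no LINE-1 genotype, sex, age, treatment or batch for any mouse, and the mutation of the strain of replicate 14 is not named. Phenotype and colony were the same split of the mice apart from replicate 14, so that they cannot be told apart here. Library totals were between 20170500 and 23319948 counts in affected mice and between 11434901 (replicate 14) and 22401136 in unaffected mice.

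The respiratory chain passes electrons from NADH (complex I) and succinate (complex II) through ubiquinone, complex III and cytochrome c to oxygen at complex IV, and complex V makes ATP from the proton gradient. Most subunits are encoded in the nucleus, while a small set, of complexes I, III, IV and V but not II, is encoded in mitochondrial DNA and transcribed there from both strands as long precursors. Thyroid follicular cells use ATP for iodide uptake and for secretion. Brown fat and skeletal muscle are richer in mitochondria than most tissues and can be dissected along with the gland.

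Marker genes show that the libraries differed in such tissues. The thyroid label held, with 14 or 15 of the 15 thyroid markers detected in each mouse and *Tg* the most abundant gene. *Ucp1*, the uncoupling protein that marks brown fat, was at 693, 51.6, 9.56, 264 and 152 CPM (counts scaled to library size with TMM factors) in affected mice 1, 3, 4, 5 and 6, and between 10.4 and 82.9 CPM (median 39.3) in unaffected mice. Affected mouse 1 was far above all others, and affected mouse 4 was below every unaffected mouse. *Acta1*, the actin of skeletal muscle, was at 2.49, 27.7, 8.32, 175 and 5379 CPM in the same affected mice and between 0.258 and 2088 CPM (median 674) in unaffected mice. Affected mouse 6 was the highest in *Acta1* and unaffected mouse 22 came next. Summed over lists of markers, brown fat (10 genes, *Ucp1* the most abundant) was at 1510, 225, 168, 667 and 604 CPM in the affected mice and between 213 and 459 CPM (median 260) in the unaffected mice. Skeletal muscle (24 genes, *Ttn* the most abundant) was at 184, 888, 446, 5222 and 121945 CPM in affected mice 1, 3, 4, 5 and 6 and between 53.2 and 49195 CPM (median 20099) in unaffected mice. At least 9 of the 10 brown fat markers and 19 of the 24 muscle markers had counts in every mouse. The summed thyroid markers were at 101689, 185012, 257902, 200951 and 120359 CPM in affected mice 1, 3, 4, 5 and 6 and between 211993 and 306150 CPM in unaffected mice. Of the affected mice, 4 were below every unaffected mouse, mice 1 and 6 by the most, and mouse 4 was within the unaffected range. *Tg* made up most of this sum. Alone it took 10.7% to 24.3% of counts in affected mice and 21.6% to 29.6% in unaffected mice. Since *Tg* holds the LINE-1 element, the sum does not measure thyroid tissue apart from that gene. The medians of the members, several members named for a low p and the counts of the other lists are given also without affected mice 1 and 6. This pair was chosen after the data were seen and had the highest members, so that lower members in these fits follow from the choice. The markers alone did not single it out. Mouse 5 was above mouse 6 in the brown fat sum, and mouse 1 had the lowest muscle sum of the affected mice.

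The share of all counts that fell on the mt- genes was 7.15%, 2.95%, 3.80%, 4.07% and 6.86% in affected mice 1, 3, 4, 5 and 6, and between 2.84% and 4.63% (median 3.32%) in unaffected mice. The group means were 4.96% ± 1.91 (SD, n = 5) when affected and 3.46% ± 0.585 (SD, n = 7) when unaffected. Affected mice 1 and 6 were above every unaffected mouse, while mice 3, 4 and 5 lay within their range. The 85 nuclear genes took 0.833%, 0.380%, 0.326%, 0.497% and 0.722% of counts in the affected mice and between 0.360% and 0.569% (median 0.444%) in the unaffected mice. Again mice 1 and 6 were the highest of all, and mouse 4 was the lowest. *Tg* alone took 10.7% to 24.3% of counts in affected mice and 21.6% to 29.6% in unaffected mice. Of the counts without *Tg*, the mt- genes took 5.89% ± 1.89 in the 5 affected mice and 4.55% ± 0.658 in the 7 unaffected mice (SD), and the nuclear genes 0.653% ± 0.217 and 0.581% ± 0.0729. On that scale mouse 3 was below every unaffected mouse, at 3.64% against at least 3.99% for the mt- genes and at 0.469% against at least 0.511% for the nuclear genes, where mouse 4 was at 0.431%. The 95% Wilson interval of such a share spanned at most 0.0221 percentage points for the mt- genes and 0.00781 for the nuclear genes and covers counting error only, not the spread between mice. In bulk tissue, more cells rich in mitochondria and more of these transcripts per cell cannot be told apart.

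Counts of mt- genes and of nuclear genes kept a narrow ratio in unaffected mice, between 7.08 and 8.17 (7.82 ± 0.362, SD, n = 7). In affected mice 1, 3, 4, 5 and 6 the ratio was 8.58, 7.77, 11.6, 8.19 and 9.49 (9.13 ± 1.53, SD, n = 5). It was above the unaffected range in 4 of the 5 affected mice, in mouse 5 by a small margin, and within it in mouse 3. Mouse 4, with the lowest nuclear share of all 12 mice, had the highest ratio.

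**Figure D1:**
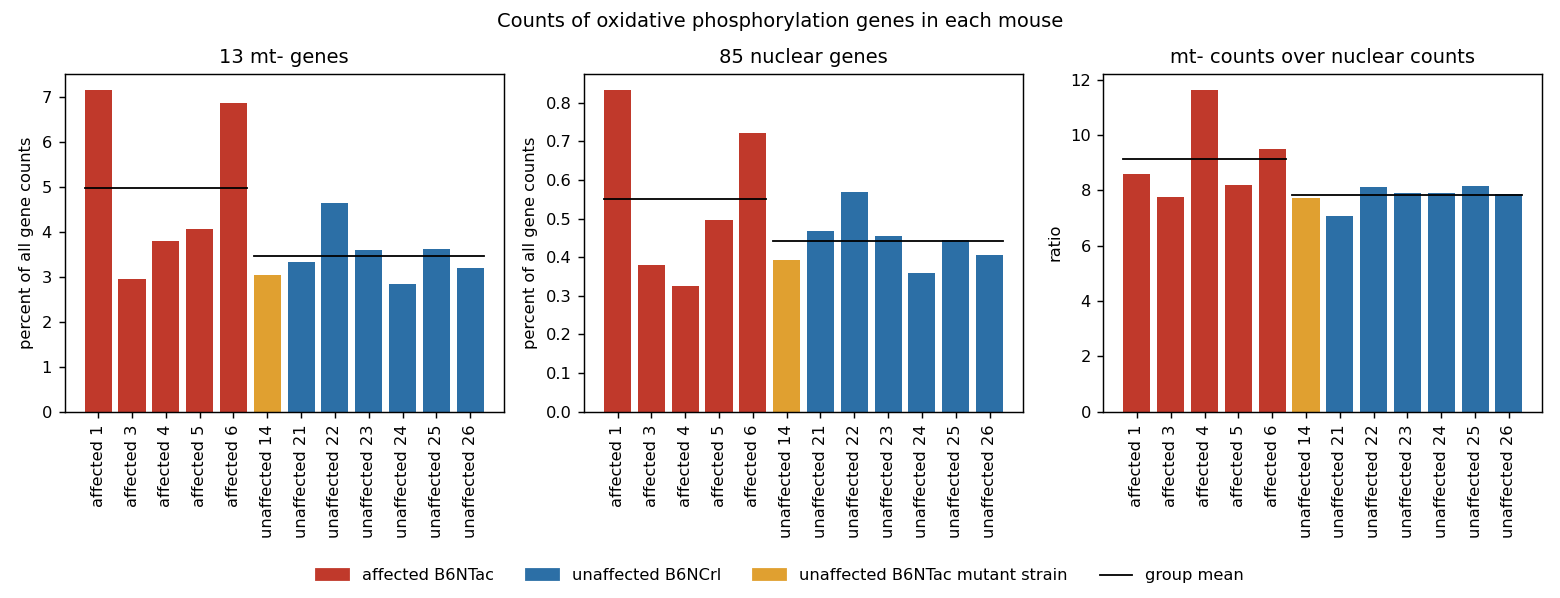
Percent of all gene counts on the 13 mt- genes and on the 85 nuclear genes, and the ratio of these counts, in each mouse (bars; black lines are group means). Affected mice 1 and 6 have the highest shares of both, at 7.15% and 6.86% for mt- genes, and affected mouse 4 has the highest ratio, 11.6.

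The 13 mt- genes all had a positive log2 fold change in affected against unaffected mice, from 0.40 for *mt-Nd1* to 0.71 for *mt-Atp8*, with a median of 0.57. Over all 19661 genes tested the median was 0.0052. Only *mt-Nd6* passed an adjusted p of 0.05 (edgeR's quasi-likelihood test, adjusted by the Benjamini-Hochberg method across every gene tested), where 7.63% of all genes were called higher and 6.10% lower. Without adjustment 10 of the 13 had p under 0.05 in the higher direction, where 15.4% of all genes did. The 13 genes come from few precursors, share the same mitochondria and are not separate observations. No mt- gene had groups that did not overlap, which was the case for 3.78% of all genes in the higher direction.

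*mt-Nd6* encodes a complex I subunit and is the sole mt- member on the minus strand. It was at 722, 298, 447, 471 and 770 CPM in affected mice 1, 3, 4, 5 and 6 and between 253 and 385 CPM (median 365) in unaffected mice. Mice 1, 4, 5 and 6 were above every unaffected mouse and mouse 3 was below the unaffected median. The log2 fold change was 0.68 (SE 0.21, adjusted p = 0.0474 from edgeR). The call was lost without affected mouse 1 (0.56, adjusted p = 0.121) or mouse 6 (0.53, adjusted p = 0.107), without affected mouse 5 (0.73, adjusted p = 0.0703), and when any 1 of the unaffected mice was left out, with adjusted p between 0.0614 and 0.0863 in those last fits. Without mice 1 and 6 together it was 0.26 (adjusted p = 0.319 from edgeR). Relative to the other 12 mt- genes, *mt-Nd6* made up 1.10% ± 0.0587 of their counts in the 5 affected mice and 0.997% ± 0.156 in the 7 unaffected mice (SD), and these ranges overlapped.

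Among the other mt- genes, *mt-Cytb*, the mitochondrially encoded subunit of complex III, was at 8523, 3810, 4805, 5501 and 9176 CPM in affected mice 1, 3, 4, 5 and 6. It lay between 3260 and 5870 CPM (median 3768) in unaffected mice. For *mt-Cytb* the log2 fold change was 0.61 (SE 0.22, adjusted p = 0.0838 from edgeR), and affected mice 1 and 6 alone were above the unaffected range. Without both of them *mt-Cytb* was at 0.18 (adjusted p = 0.551 from edgeR). *mt-Co1*, the catalytic subunit of complex IV, was the most abundant member of either genome per length, with a mean of 10559.7 ± 3937 FPKM (SD) in the 5 affected mice and 7631 ± 1516 FPKM in the 7 unaffected mice. FPKM is the authors' count scaled to transcript length and library size. The lowest mt- level per length was that of *mt-Nd6*, at 1035 ± 384 FPKM (SD, n = 5) and 649 ± 82.9 FPKM (SD, n = 7). The 13 genes thus span a wide range of levels, and their fold changes lie close to each other. No test between members was made.

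*mt-Atp8* and *mt-Atp6* encode complex V subunits and share 43 bases, 21.1% of *mt-Atp8*, in different reading frames. The transcript of *mt-Atp8* is shown because reads in the shared stretch cannot be given to one gene. The sequence below is chrM:7766-7969 on the plus strand of GRCm38, as in GENCODE M21, with the stretch shared with *mt-Atp6* in capitals.
mt-Atp8: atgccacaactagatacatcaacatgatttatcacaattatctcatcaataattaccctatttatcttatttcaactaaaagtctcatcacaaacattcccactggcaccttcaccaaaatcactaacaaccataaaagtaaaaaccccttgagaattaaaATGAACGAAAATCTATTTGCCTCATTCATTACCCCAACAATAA

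*mt-Atp8* was at 446, 155, 406, 371 and 459 CPM in affected mice 1, 3, 4, 5 and 6 and between 172 and 320 CPM (median 219) in unaffected mice. Of the 5 values, 4 were above every unaffected mouse, while mouse 3 was below every unaffected mouse. The log2 fold change was 0.71 (SE 0.24, adjusted p = 0.0725 from edgeR) and 0.91 without affected mouse 3 (adjusted p = 0.00585). Without mice 1 and 6 together it was 0.47 (adjusted p = 0.322 from edgeR). As a percentage of *mt-Atp6* counts, *mt-Atp8* ranged from 8.44% to 16.2% in affected mice and from 5.42% to 12.8% in unaffected mice, and was highest in affected mouse 4. Other shared stretches are shorter: 14 bases between *mt-Nd5* and *mt-Nd6*, on opposite strands, 7 bases between *mt-Nd4l* and *mt-Nd4*, and 1 base between *mt-Atp6* and *mt-Co3*. No source used here says if strand entered the counting.

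Copies of mitochondrial DNA in the nuclear genome held counts beside several mt- genes. Of the 13, 9 have an annotated pseudogene with at least 95% identity over at least 100 bases. The copy of *mt-Co2* on chromosome 1 (*Gm28661*) and a minor one held 39.1% to 45.2% of the counts of gene and copies together, that of *mt-Co3* (*Gm28437*) 35.2% to 51.1%, that of *mt-Atp6* (*Gm10925*) 25.4% to 34.0% and that of *mt-Nd4l* (*Gm10222*) 19.1% to 31.2%. These 4 copies on chromosome 1 were 100% identical to the gene over the aligned stretch, so that the levels of these 4 genes are uncertain. Summed with its copies, *mt-Co3* differed by 0.36 log2 units between the group means of log2 CPM, against 0.48 for the gene alone. For *mt-Co2* the values were 0.45 and 0.43, for *mt-Atp6* 0.50 and 0.47, and for *mt-Nd4l* 0.54 and 0.58. The direction was the same with and without the copies for all 9 genes. Ribosomal RNA was depleted before sequencing, and *mt-Rnr1* and *mt-Rnr2* held at most 0.0121% of the counts in any mouse, so they do not measure mitochondrial ribosomal RNA.

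Of the 81 nuclear genes tested, 76 had a positive log2 fold change in affected mice, where 50.8% of all genes tested did, and the median was 0.33. None passed an adjusted p of 0.05 in either direction (edgeR's quasi-likelihood test, lowest adjusted p 0.0559). Without adjustment, 11 were higher and 1 lower with p under 0.05, where 15.4% and 13.6% of all genes were. DESeq2 called 4 of the 81 higher, where it called 10.4% of all genes, and 0 lower, where it called 7.88%. A fit with 1 surrogate variable called 7 higher, where it called 8.81% of all genes, and a fit of genes with at least 10 counts in every mouse called 1, where it called 9.67%. That surrogate variable ordered the mice nearly as the summed skeletal muscle markers did. The values of both groups overlapped in all 81 tested nuclear genes, while 3.78% of all genes were higher and 3.36% lower in the affected mice without overlap. By complex, the median log2 fold change was 0.31 for complex I, 0.40 for complex II, 0.49 for complex III, 0.42 for complex IV and 0.23 for complex V. Without affected mice 1 and 6 these medians were -0.13, -0.12, -0.082, -0.0093 and -0.19.

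**Figure D2:**
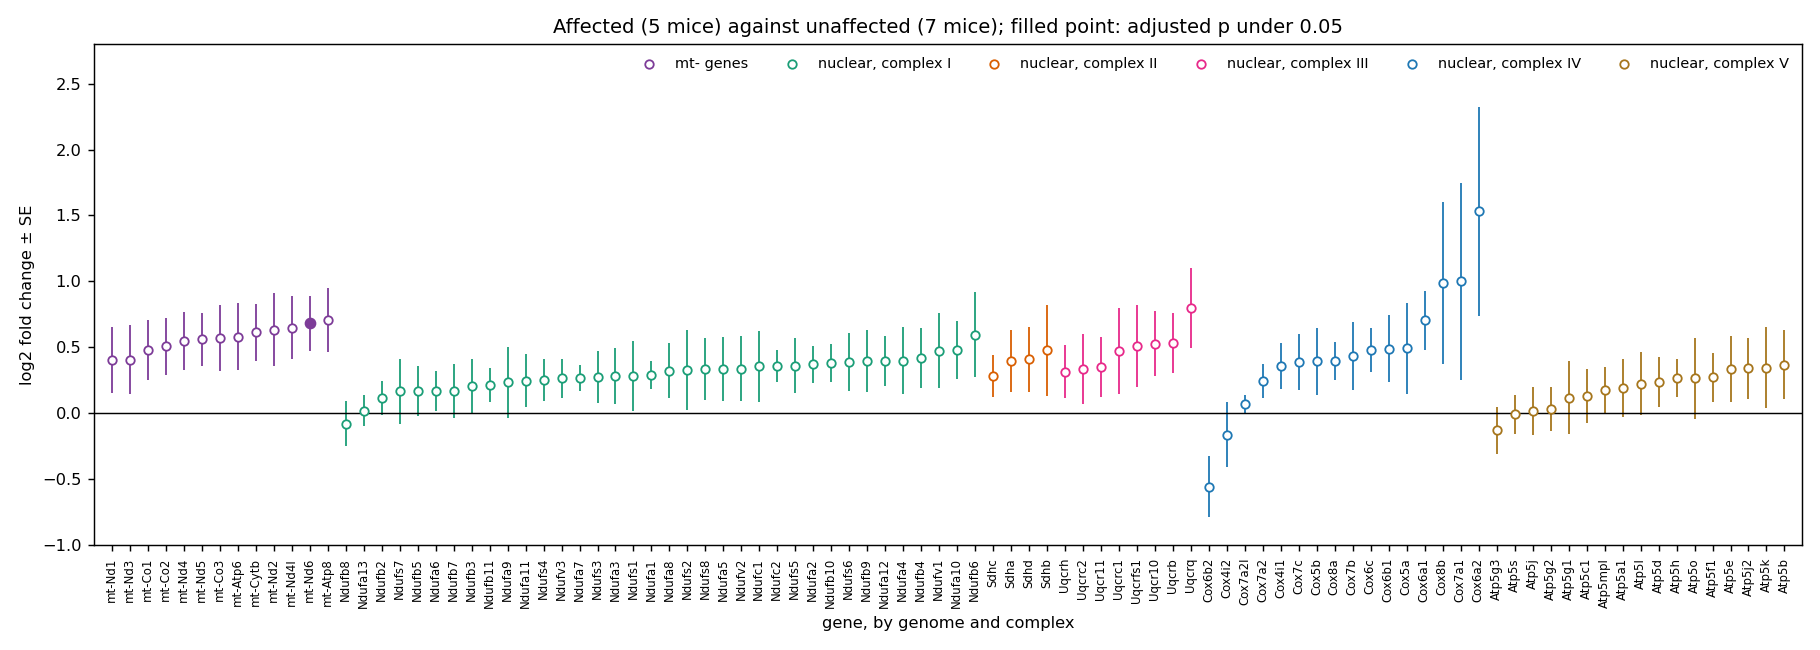
Log2 fold change of each member tested, affected against unaffected mice, with SE bars, grouped by genome and complex. All 13 mt- genes and 76 of 81 nuclear genes lie above 0, the filled point is *mt-Nd6*, the sole member with an adjusted p under 0.05, and the nuclear-encoded muscle-type subunits *Cox6a2*, *Cox7a1* and *Cox8b* have the widest bars.

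Affected mice 1 and 6 were left out together in an alternative added after the data were seen. They were the affected mice with the highest members, so that a lower median in this fit follows from the choice, while affected mouse 5, with more *Ucp1* than mouse 6, and unaffected mouse 22, with the next highest *Acta1*, were kept. In this fit the median log2 fold change of the nuclear genes was -0.13 (all genes -0.04), 17 of 81 were above 0 and none was called in either direction, where 9.42% of all genes were called higher and 4.90% lower. In the same fit the median of the mt- genes was 0.05, 11 of 13 were above 0 and none was called. That fit does not even out the tissues. The median log2 fold change of its 21 tested skeletal muscle markers was -3.16, with none called. With log2 CPM of *Ucp1* and *Acta1* as covariates, also added later, the nuclear median was -0.026 (all genes -0.024) with 35 of 81 above 0. The mt- median was then 0.32 with all 13 above 0, and no mt- gene was called. Leaving out 1 mouse at a time kept both medians positive. The nuclear median fell to 0.18 without affected mouse 6 and to 0.20 without mouse 1, and rose to 0.48 without mouse 4, where 7 nuclear genes and 9.38% of all genes were called higher. Without affected mouse 3, 4 nuclear and 6 mt- genes were called higher, where 5.53% of all genes were, and without unaffected mouse 22, 2 nuclear genes were, where 6.74% of all genes were.

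In complex I, which takes electrons from NADH, 35 of 36 nuclear genes had a positive log2 fold change and none was called. *Ndufc2*, an accessory subunit, was at 48.4, 33.3, 30.9, 44.95 and 49.4 CPM in affected mice 1, 3, 4, 5 and 6 and between 29.9 and 39.1 CPM (median 31.1) in unaffected mice. The log2 fold change of 0.36 (SE 0.12) had an adjusted p of 0.0711 from edgeR, the lowest among the nuclear genes of the complex. It was chosen after its values were seen, as were *Ndufa7* (0.27, SE 0.10) and *Ndufb10* (0.38, SE 0.14), with adjusted p of 0.0961 and 0.0964 from edgeR. Affected mice 1, 5 and 6 were above all unaffected mice for *Ndufc2*, and mice 3 and 4 were not. Without mice 1 and 6 together, *Ndufc2* was at 0.17, *Ndufa7* at 0.13 and *Ndufb10* at 0.10 (lowest adjusted p 0.369 from edgeR). *Ndufb8* was the sole nuclear complex I gene below 0, at -0.08 (SE 0.17).

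Complex II, succinate dehydrogenase, also works in the citric acid cycle and has no mitochondrially encoded subunit. *Sdha*, its flavoprotein, was at 465, 181, 185, 280 and 433 CPM in affected mice 1, 3, 4, 5 and 6 and between 201 and 313 CPM (median 227) in unaffected mice. Affected mice 1 and 6 were above and mice 3 and 4 below every unaffected mouse, so that the groups overlapped through the spread of the affected mice. *Sdhb*, the iron-sulfur subunit, was likewise highest in mice 1 and 6 and lowest in mouse 4, at 103, 31.9, 25.8, 56.7 and 97.3 CPM, against 31.6 to 68.4 CPM (median 44.9). The log2 fold changes of *Sdha*, *Sdhb*, *Sdhc* and *Sdhd* were 0.40, 0.48, 0.28 and 0.41 with SE of 0.23, 0.34, 0.16 and 0.25, and none was called (lowest adjusted p 0.269 from edgeR). In complex III the 8 genes had log2 fold changes from 0.32 to 0.80, highest for *Uqcrq* (SE 0.31, adjusted p = 0.107 from edgeR), a small structural subunit at 62.0, 24.8, 20.7, 38.4 and 59.6 CPM in the affected mice and 15.1 to 38.2 CPM (median 24.3) in the unaffected mice. *Uqcrq* was called with 1 surrogate variable (0.89), by DESeq2 (0.81) and without affected mouse 4 (0.99). Its values were far above the unaffected range in affected mice 1 and 6 alone. Without these mice the median of complex III was -0.082.

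Complex V held the most abundant nuclear member per length, *Atp5b*, the catalytic beta subunit of ATP synthase, with a mean of 322 ± 149.8 FPKM (SD, n = 5) in affected and 252 ± 48.1 FPKM (SD, n = 7) in unaffected mice. Its counts were at 893, 370, 329, 530 and 907 CPM in affected mice 1, 3, 4, 5 and 6 and between 371 and 671 CPM (median 455) in unaffected mice. Affected mice 1 and 6 were above and mice 3 and 4 below the unaffected range, with a log2 fold change of 0.37 (SE 0.26, adjusted p = 0.38 from edgeR). The alpha subunit gene *Atp5a1* had 0.19 (SE 0.22). Of the 17 genes of the complex that were tested, 15 were above 0 and none was called. The 3 genes that encode the same c-ring protein did not share 1 pattern. *Atp5g1* was high in affected mouse 6 alone, at 57.9 CPM against 19.2 CPM in mouse 1, with a log2 fold change of 0.12 (SE 0.28). *Atp5g3* had -0.13 (SE 0.17) and *Atp5g2* 0.03 (SE 0.17). A pseudogene that matches *Atp5g2* over 645 bases (*Gm10175*) held a mean of 795 counts against 128 for *Atp5g2*, so that the value of *Atp5g2* is uncertain.

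Complex IV, cytochrome c oxidase, has subunits that come in a general form and a form of heart and skeletal muscle, of which *Cox7a1* and *Cox8b* are also used in brown fat. The general (liver-type) form *Cox6a1* had the lowest p of all nuclear members. It was at 140.0, 56.6, 47.2, 78.7 and 84.9 CPM in affected mice 1, 3, 4, 5 and 6 and between 39.7 and 61.8 CPM (median 49.3) in unaffected mice. *Cox6a1* had a log2 fold change of 0.71 (SE 0.22, adjusted p = 0.0559 from edgeR), where affected mice 1, 5 and 6 were above all unaffected mice. Under the alternative fits its adjusted p lay between 0.0151 and 0.291, and 4 of 26 fits called it. Without mice 1 and 6 together it was 0.29 (adjusted p = 0.268 from edgeR). *Cox6c* (0.48, SE 0.16, adjusted p = 0.073), *Cox8a* (0.40, SE 0.14, adjusted p = 0.0895) and *Cox4i1* (0.36, SE 0.18, adjusted p = 0.201) had the same direction by the same edgeR test. Without mice 1 and 6 together, *Cox6c* was at 0.16 (adjusted p = 0.447), *Cox8a* at 0.16 (adjusted p = 0.363) and *Cox4i1* at -0.0075 (adjusted p = 0.978) by edgeR, and *Cox8a* was at 0.22 without mouse 1 alone.

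The muscle forms had the widest spread. *Cox7a1* was at 43.8, 4.95, 1.91, 16.8 and 51.2 CPM in affected mice 1, 3, 4, 5 and 6 and between 2.75 and 27.5 CPM (median 12.2) in unaffected mice. *Cox8b* was at 55.1, 7.90, 4.13, 25.1 and 59.1 CPM, against 8.26 to 33.6 CPM (median 14.6). Both genes were high in affected mice 1 and 6, were lowest of all 12 mice in affected mouse 4, and were highest among the unaffected mice in mouse 22. Their log2 fold changes were 1.00 (SE 0.75, adjusted p = 0.415) and 0.99 (SE 0.61, adjusted p = 0.317) by edgeR, and -0.63 and -0.32 with *Ucp1* and *Acta1* as covariates. Per length, *Cox7a1* made up 54.8% and 59.6% of the FPKM of *Cox7a1* plus *Cox7a2* in affected mice 1 and 6, 8.24% in affected mouse 4, and between 10.4% and 49.8% in unaffected mice. Its general partner *Cox7a2* was the steadiest member in unaffected mice, at 34.9 to 59.4 CPM in affected mice and 38.5 to 45.6 CPM in unaffected mice.

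Promoters of these 2 pairs and of *Cox6a1* are shown because *Cox7a1* and *Cox8b* varied far more among the mice than *Cox7a2* and *Cox8a*. The windows run from 250 bases before to 50 bases after the RefSeq start (GRCm38.p6), 5′ to 3′ on the strand of the gene. Capitals mark matches on either strand to GCGCATG (part of the site of NRF1, an activator of respiratory genes), CCGGAAG (bound by ETS factors such as GABP) or CCAAT (bound by NF-Y). They are *Cox7a1* (chr7:30183921-30184220, plus strand), *Cox7a2* (chr9:79759804-79760103, minus), *Cox8b* (chr7:140900397-140900696, minus), *Cox8a* (chr19:7217567-7217866, minus) and *Cox6a1* (chr5:115348909-115349208, minus).
Cox7a1: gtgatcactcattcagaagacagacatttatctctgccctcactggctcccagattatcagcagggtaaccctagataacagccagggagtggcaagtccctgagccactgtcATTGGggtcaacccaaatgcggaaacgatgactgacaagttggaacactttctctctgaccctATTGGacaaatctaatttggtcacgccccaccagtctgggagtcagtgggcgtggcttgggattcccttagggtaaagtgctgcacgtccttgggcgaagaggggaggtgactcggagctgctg
Cox7a2: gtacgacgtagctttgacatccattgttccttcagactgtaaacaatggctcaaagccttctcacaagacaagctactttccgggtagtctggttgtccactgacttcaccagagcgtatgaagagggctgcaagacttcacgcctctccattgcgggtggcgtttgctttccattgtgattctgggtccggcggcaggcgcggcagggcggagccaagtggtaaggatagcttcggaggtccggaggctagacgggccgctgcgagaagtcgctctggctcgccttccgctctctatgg
Cox8b: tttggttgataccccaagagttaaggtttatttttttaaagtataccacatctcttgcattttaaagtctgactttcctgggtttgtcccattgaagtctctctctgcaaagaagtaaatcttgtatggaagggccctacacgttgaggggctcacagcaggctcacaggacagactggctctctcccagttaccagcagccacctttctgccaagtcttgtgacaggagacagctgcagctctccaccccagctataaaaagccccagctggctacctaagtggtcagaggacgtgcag
Cox8a: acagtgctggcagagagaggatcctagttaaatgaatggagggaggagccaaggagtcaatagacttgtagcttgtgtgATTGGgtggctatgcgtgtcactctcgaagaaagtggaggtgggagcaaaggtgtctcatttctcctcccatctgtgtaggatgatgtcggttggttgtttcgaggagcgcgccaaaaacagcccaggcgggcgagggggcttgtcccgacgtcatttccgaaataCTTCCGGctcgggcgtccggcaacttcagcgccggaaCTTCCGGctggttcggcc
Cox6a1: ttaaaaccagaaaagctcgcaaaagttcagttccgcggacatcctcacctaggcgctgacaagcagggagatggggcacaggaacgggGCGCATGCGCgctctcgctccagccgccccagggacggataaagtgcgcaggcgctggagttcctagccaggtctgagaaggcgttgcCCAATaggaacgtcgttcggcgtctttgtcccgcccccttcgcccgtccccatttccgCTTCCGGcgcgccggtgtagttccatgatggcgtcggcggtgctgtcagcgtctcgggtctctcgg

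Of these windows, that of *Cox6a1* held all 3 letter runs, that of *Cox8a* held CCGGAAG and CCAAT, and that of *Cox7a1* held CCAAT alone. Those of *Cox7a2* and *Cox8b* held none, and no match to one run overlapped a match to another in these windows. Nuclear members were matched to RefSeq by Ensembl ID, or by symbol where no ID matched. Among 71 windows of the 66 nuclear members matched, GCGCATG was found in 18.3%, CCGGAAG in 22.5% and CCAAT in 42.3%. Among 32851 windows of all 27025 genes the shares were 3.91%, 8.86% and 37.4%. The median GC content was 57.3% in the member windows and 52.7% in all windows and bears on how often such letters occur. A match of letters is not a bound site.

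*Cox6a2*, the muscle form of *Cox6a1*, had another order of the mice than *Cox7a1* and *Cox8b*. It was at 9.89, 12.9, 17.9, 16.6 and 53.6 CPM in affected mice 1, 3, 4, 5 and 6 and between 0.567 and 18.6 CPM (median 7.78) in unaffected mice. Every affected mouse was above 4 of the 7 unaffected mice, namely replicates 14, 21, 24 and 26. The log2 fold change was 1.53 (SE 0.79) with an adjusted p of 0.228 from edgeR. The mice with the lowest skeletal muscle markers in each group are given first. In affected mice 1, 3 and 4 the summed muscle markers were at 184, 888 and 446 CPM with *Cox6a2* counts of 226, 298 and 346. In unaffected mice 14, 26 and 24 they were at 57.9, 53.2 and 2440 CPM with *Cox6a2* counts of 7, 11 and 39. Affected mice 5 and 6 were at 5222 and 121945 CPM of muscle markers with *Cox6a2* counts of 385 and 972. Unaffected mice 21, 22, 23 and 25 were at 20667, 49195, 20099 and 42109 CPM with counts of 159, 296, 205 and 328. The cause of the *Cox6a2* levels was not tested. With *Ucp1* and *Acta1* as covariates, added after the data were seen, *Cox6a2* had a log2 fold change of 2.38 (SE 0.39, adjusted p = 0.00434) and was the sole nuclear member called by edgeR, where 6.28% of all genes were called higher and 3.34% lower. With 1 surrogate variable it had 2.38 (SE 0.43, adjusted p = 0.00431), and over all alternatives the change lay between 0.91 and 2.38 with 2 of 25 fits calling it. The surrogate variable ordered the mice nearly as the muscle sum did. It ran from 0.55 in affected mouse 6 and 0.34 in unaffected mouse 22 to -0.35 in unaffected mice 14 and 26. The 2 fits that called *Cox6a2* are thus not separate adjustments. Without affected mouse 6 *Cox6a2* was at 0.91 (adjusted p = 0.49 from edgeR), and without mice 1 and 6 together at 1.04 (adjusted p = 0.502). *Cox6a2* lies on the minus strand of chromosome 7 (GRCm38, 128205435 to 128206387) and its end overlaps *Itgad* on the other strand, which held between 0 and 16.6 counts in a mouse.

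**Figure D3:**
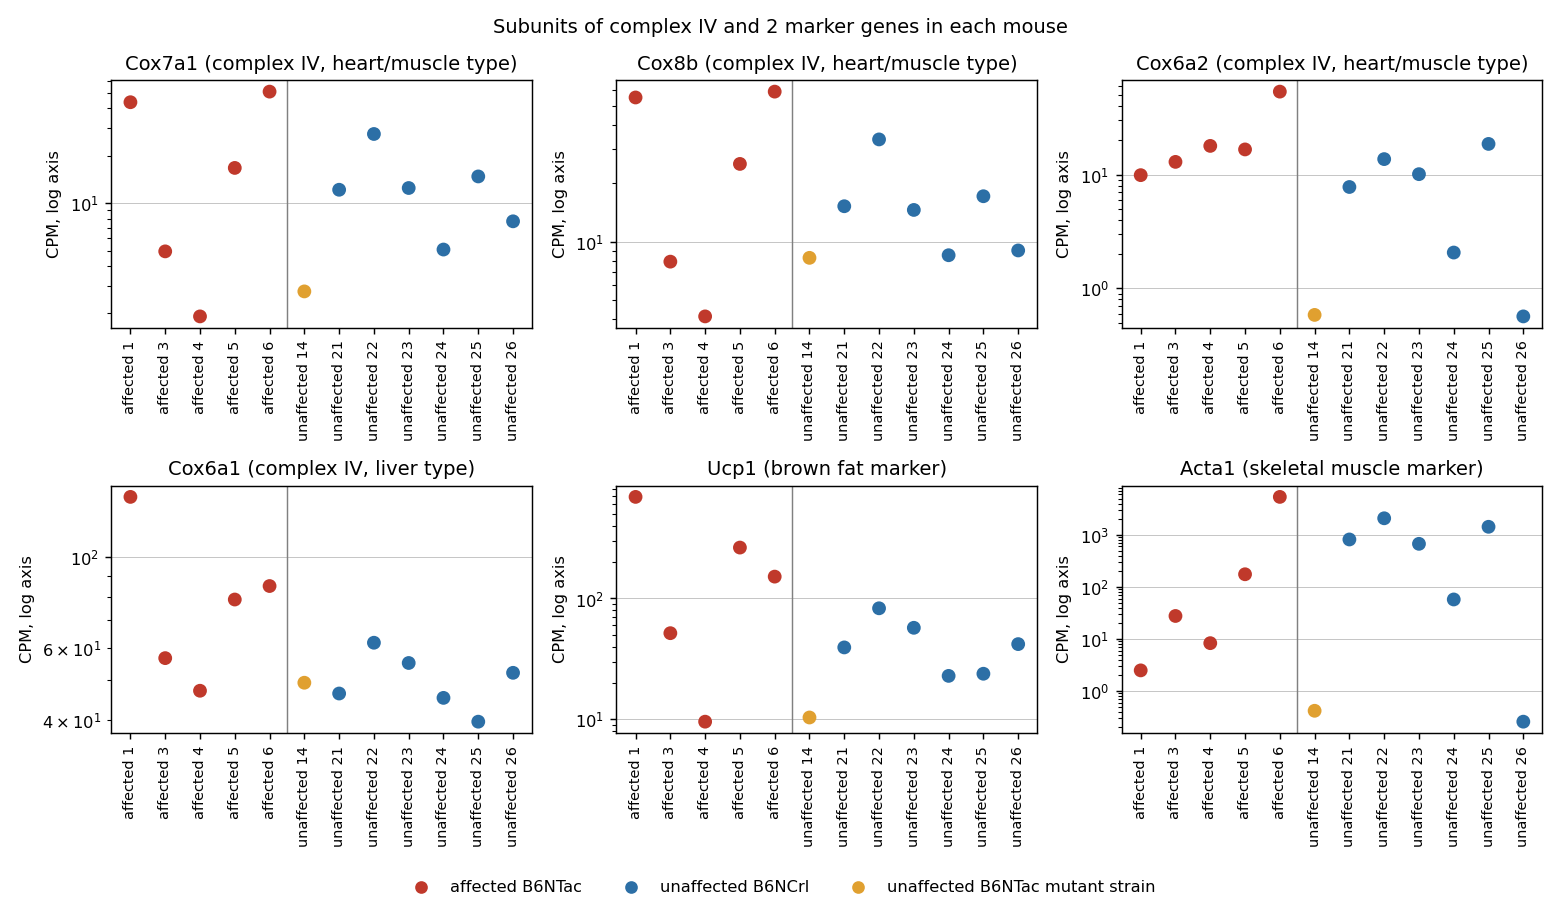
CPM (log axis) of the muscle-type complex IV subunits *Cox7a1*, *Cox8b* and *Cox6a2*, of the general form *Cox6a1*, and of the markers *Ucp1* and *Acta1* in each mouse. *Cox7a1* and *Cox8b* are highest in affected mice 1 and 6 and lowest in affected mouse 4, whereas *Cox6a2* is at 9.89 CPM or more in all 5 affected mice. *Acta1* is at 2.49 and 8.32 CPM in affected mice 1 and 4, and the cause of the *Cox6a2* levels was not tested.

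The remaining isoforms were low. *Cox6b2*, a form known from testis, was at 1.27, 1.30, 0.878, 1.77 and 1.10 CPM in affected mice 1, 3, 4, 5 and 6 and between 1.13 and 2.61 CPM (median 1.92) in unaffected mice. It was the sole nuclear member lower with an unadjusted p under 0.05, at -0.55 (SE 0.23, adjusted p = 0.135 from edgeR). Over the 26 alternative fits, which include that without affected mice 1 and 6, its change lay between -0.71 and -0.40 and 0 fits called it. Its FPKM was 1.80% ± 0.724 (SD) of *Cox6b2* plus *Cox6b1* in the 5 affected mice and 3.36% ± 1.19 in the 7 unaffected mice. *Cox4i2*, a form known from lung and oxygen sensing, was at most 1.13 CPM in every mouse and had -0.16 (SE 0.25).

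Most members were high or low in the same mice. Affected mouse 6 was the highest of all 12 mice in 55 of the 81 nuclear genes (67.9%) and in 13 of 13 mt- genes, where it was the highest in 14.9% of all genes tested. Affected mouse 1 was the highest in 22 of the 81 (27.2%), where it was the highest in 12.8% of all genes, and affected mouse 4 was the lowest in 43 of the 81 (53.1%), where it was the lowest in 11.97% of all genes. Relative to the mean of the unaffected mice, the median over the nuclear genes was 0.75, -0.23, -0.35, 0.22 and 0.87 log2 units in affected mice 1, 3, 4, 5 and 6. For the mt- genes it was 0.94, -0.29, 0.18, 0.27 and 1.16. Of the affected mice, the genomes parted in mouse 4 alone, where the nuclear median was below and the mt- median above the unaffected mean. Among the unaffected mice, mouse 22 was the highest in 75 of the 81 nuclear genes and in 3008 of all 19661 genes tested, with a median of 0.41 log2 units. Members outside this pattern included *Atp5g1*, at -0.50 log2 units in affected mouse 1, *Cox6a2*, at 2.12 in affected mouse 4, and *Cox6b2* and *Cox4i2*, both below 0 in mice 1 and 6.

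**Figure D4:**
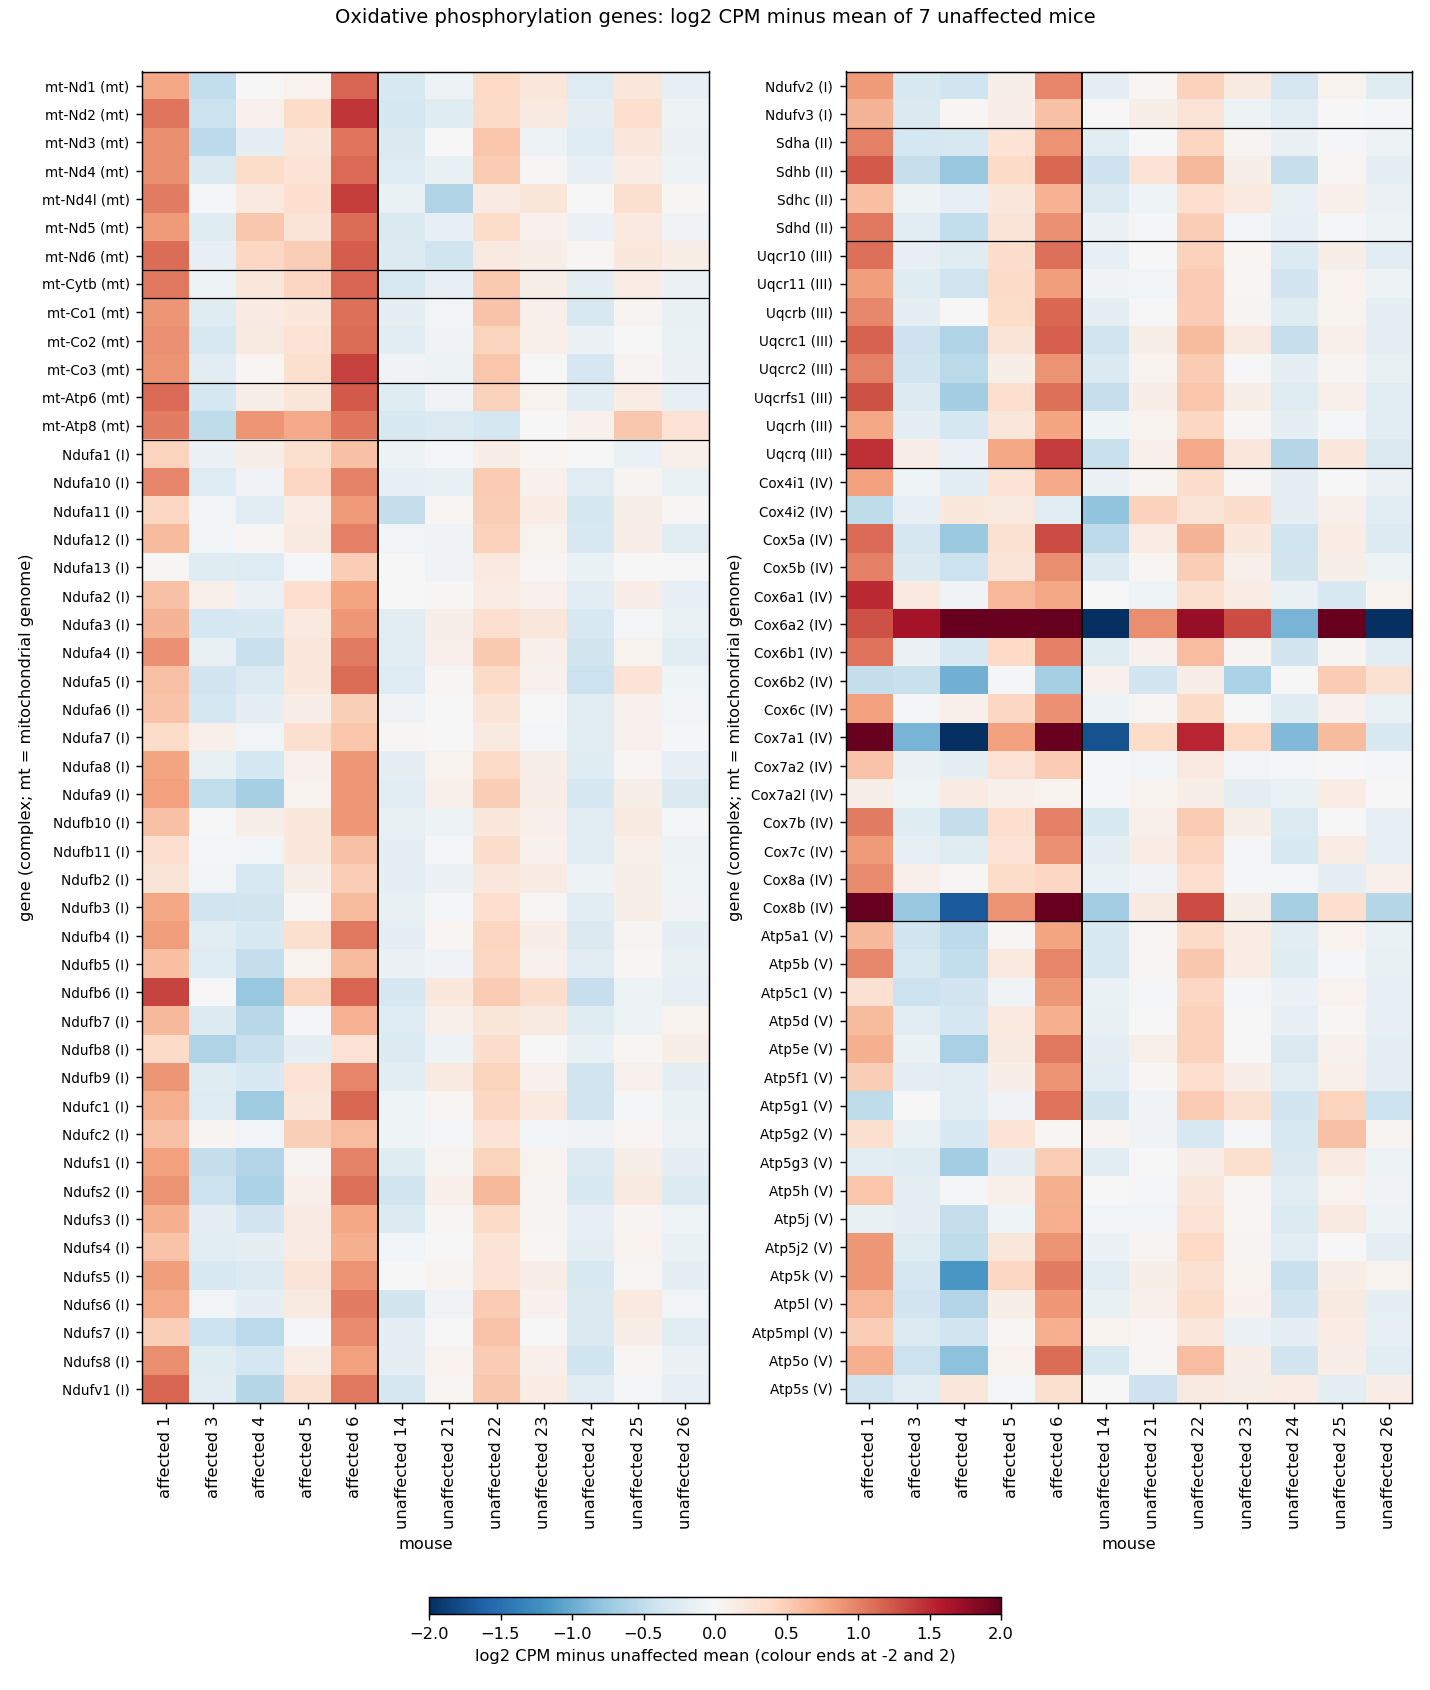
Log2 CPM minus the mean of the 7 unaffected mice for the 94 members tested (rows, with the complex in brackets) in each of the 12 mice (columns), with colours ending at -2 and 2. Columns of affected mice 1 and 6 are red in nearly every row, and affected mouse 4 is blue in most nuclear rows (median -0.35) and above 0 in 12 of the 13 mt- rows (median 0.18).

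The spread between affected mice was wider than between unaffected mice. The median SD of log2 CPM over the nuclear genes was 0.58 in affected and 0.25 in unaffected mice, and over the mt- genes 0.60 and 0.28. Over all genes tested it was 0.28 and 0.21. The steadiest members in unaffected mice were *Cox7a2* (SD 0.087), *Ndufa1* (0.099) and *Ndufa13* (0.10). *Cox7a2l*, which helps join complexes III and IV into supercomplexes, was the steadiest in affected mice (SD 0.099) and had a log2 fold change of 0.07 (SE 0.07).

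The unaffected mouse of the B6NTac mutant strain, replicate 14, was within the range of the 6 B6NCrl mice for 61 of 81 nuclear genes (75.3%), below it for 20 and above it for 0. For the mt- genes it was within the range for 5 of 13 and below it for 8. Over all genes tested it was within the range for 65.5%. It had the smallest library, and with 1 mouse there is no test. With the 6 B6NCrl mice alone as controls, the median log2 fold change was 0.30 for the nuclear genes and 0.54 for the mt- genes, and none of either was called, where 6.14% of all genes were called higher and 4.95% lower.

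Genes that build and run the chain were described from lists chosen with earlier results known. Of 49 assembly factors (48 tested), 6 were higher and 0 lower (7.63% of all genes were called higher), with a median log2 fold change of 0.16. They were *Uqcc2* (0.49, SE 0.15), which serves complex III, *Cox18* (0.40, SE 0.11), which serves complex IV, *Sdhaf1* (0.38, SE 0.10), which serves complex II, and, outside the rule for named genes, *Surf1* and *Coa3* of complex IV and *Timmdc1* of complex I, with adjusted p between 0.0232 and 0.046 from edgeR. Of the 26 alternative fits that tested for a change of any size, 9 called *Uqcc2*, 15 *Cox18* and 10 *Sdhaf1*. Without affected mice 1 and 6, 2 assembly factors were higher and 0 lower, where 9.42% and 4.90% of all genes were, and the median was -0.0039. Of 36 factors that copy, transcribe and translate mitochondrial DNA, 2 were higher and 0 lower, where 7.63% and 6.10% of all genes were, so that the count of higher genes is near the background. Without mice 1 and 6, 1 was higher and 1 lower, where 9.42% and 4.90% of all genes were. *Tfb2m*, which opens the mitochondrial promoters for transcription, was at 40.1, 29.99, 36.7, 38.0 and 42.4 CPM in affected mice 1, 3, 4, 5 and 6 and between 25.3 and 30.2 CPM (median 27.8) in unaffected mice. Mouse 3 fell just inside the unaffected range and the other 4 affected mice were above it, with a log2 fold change of 0.43 (SE 0.08, adjusted p = 0.0057 from edgeR). It was called in all 26 alternative fits (0.33, adjusted p = 0.029, without mice 1 and 6), and *Mgme1*, a mitochondrial exonuclease (0.52, SE 0.16), in 5 of 26. Of 75 mitochondrial ribosomal proteins, 5 were higher and 0 lower (median 0.15), where 7.63% and 6.10% of all genes were, so that the count of higher genes is near the background. Among the 5 were *Mrpl54* (0.56, SE 0.12, adjusted p = 0.00854 from edgeR), *Mrps6* (0.53, SE 0.15) and *Mrps2* (0.43, SE 0.10), which 26, 9 and 21 of the 26 alternative fits called. When mice 1 and 6 were left out, 3 were higher, where 9.42% of all genes were, and the median was 0.019.

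Of 21 regulators of mitochondrial content and respiration, 1 was higher and 2 were lower by edgeR, where 7.63% and 6.10% of all genes were, so that the counts are near the background. The counts were 1 and 3 without mice 1 and 6, where 9.42% of all genes were called higher and 4.90% lower. *Esrrb*, an orphan nuclear receptor related to those that drive respiratory genes, fell to 6.96, 9.46, 11.5, 12.5 and 7.83 CPM in affected mice 1, 3, 4, 5 and 6 from between 17.6 and 30.9 CPM (median 24.3) in unaffected mice. *Hif1a*, which directs the response to low oxygen, was at 104, 150, 200, 154 and 112 CPM against 207 to 298 CPM (median 233). The groups did not overlap for either gene, where 3.36% of all genes were lower without overlap. Their log2 fold changes were -1.34 (SE 0.18, adjusted p = 0.000544) and -0.79 (SE 0.16, adjusted p = 0.00735) from edgeR, and both were called in all 26 alternative fits. *Esrrb* was at -1.14 (adjusted p = 0.00141) and *Hif1a* at -0.56 (adjusted p = 0.02) by edgeR without mice 1 and 6. *Myc*, a growth regulator, was higher by 0.49 (SE 0.15, adjusted p = 0.0436 from edgeR), a call that 8 of 26 alternative fits made with adjusted p of up to 0.192. The medians were 0.49 for 18 genes of the citric acid cycle and 0.36 for 18 tested genes of electron carriers and ubiquinone synthesis, and none of these was called. These medians were -0.13 and -0.15 without mice 1 and 6. Of 22 glycolysis genes, 0 were higher and 1 was lower, *Eno2*, the neuronal enolase (-0.66, SE 0.12, adjusted p = 0.00318), and without mice 1 and 6 1 was higher and 3 were lower. For comparison, 5 of 5 tested genes of the integrated stress response were higher, also without mice 1 and 6, with *Gdf15*, a secreted stress factor, at 3.86 (SE 0.49), *Ddit3* at 2.61 (SE 0.28) and *Trib3* at 2.57 (SE 0.27), a list that earlier results of these libraries had already shown. *Gdf15* was at 24.8, 78.9, 36.9, 54.7 and 14.7 CPM in affected mice 1, 3, 4, 5 and 6 and between 1.54 and 7.58 CPM in unaffected mice, and its lowest affected values were those of mice 6 and 1, where the members were highest.

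Markers of other cell types were counted by the same edgeR fit, in which 7.63% of all genes were called higher and 6.10% lower, and their part in the results beyond the fits above was not tested. Of 9 tested brown fat markers, 2 were higher, *Elovl3* (3.79, SE 0.90) and *Dio2* (3.25, SE 0.85), and 1 was lower, *Prdm16* (-0.56, SE 0.13), while *Ucp1* had 2.55 (SE 0.83, adjusted p = 0.0655 from edgeR). *Elovl3* was called in 21 of 25 alternative fits, with a change of 0.81 and an adjusted p of 0.455 at the weakest, and *Dio2* in 12 of 26, with 1.06 and 0.371. Of 21 tested skeletal muscle markers 0 were called (most abundant *Ttn*, 0.47, SE 1.80), and of 10 white fat markers 0 were called (*Fabp4*, 0.74, SE 0.40). The white fat sum was at 4073, 921, 746, 1528 and 2418 CPM in affected mice 1, 3, 4, 5 and 6 and between 839 and 1569 CPM in unaffected mice. It was highest in mice 1 and 6 and lowest in mouse 4, as was the share of the nuclear members. Of 15 thyroid markers, *Slc26a4* was higher and *Cdh16* and *Pax8* were lower. Of 9 macrophage markers, 5 were higher, among them *Lyz2* (1.73, SE 0.23), *Cd163* and *Cd68*. The macrophage sum was at 474, 404, 316, 343 and 309 CPM in affected mice 1, 3, 4, 5 and 6 and between 119.98 and 271 CPM in unaffected mice, so that it was lowest among the affected mice in mouse 6. *Dcn* and *Pdgfra* of 6 fibroblast markers were higher, and the fibroblast sum, at 1186, 771, 839, 757 and 1126 CPM in the affected mice and at most 819 CPM in the unaffected mice, was also highest in mice 1 and 6. *Kdr* of 7 endothelial and *Ret* of 4 tested C cell markers were lower. None of the tested markers of T cells (7, most abundant *Themis*), B cells (2, *Ighm*), parathyroid (4, *Chga*), erythrocytes (5, *Hbb-bs*) or airway and cartilage (5, *Muc5b*) was called. The erythrocyte sum was at 1449, 337, 740, 263 and 1266 CPM in affected mice 1, 3, 4, 5 and 6. It lay between 200 and 1510 CPM (median 337) in unaffected mice, so that among affected mice it was also highest in mice 1 and 6. Without affected mice 1 and 6, 2 brown fat, 3 thyroid, 3 macrophage and 3 airway and cartilage markers were higher and 2 thyroid and 1 B cell markers were lower, and no marker of the other lists was called, where 9.42% of all genes were called higher and 4.90% lower. The median log2 fold change of the skeletal muscle markers was -3.16 in that fit.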

How the data were processed

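Thyroid total RNA of 12 mice was depleted of ribosomal RNA and sequenced. The authors aligned reads with OSA4 in Array Studio to a reference they label Mouse.B39, with Ensembl annotation, and deposited estimated counts and FPKM for each gene. The build was inferred: strand, start and end in the table equal those of GENCODE M21 on GRCm38 for 55536 of 55536 genes matched by ID. Whether counting used the strand is not given in the sources used here, nor is whether libraries shared a batch. Counts were rounded and tested with edgeR 4.0.16 in R 4.3.3 (default filter with a minimum count of 10, TMM factors, robust quasi-likelihood fit, 5 affected against 7 unaffected mice) over all 19661 genes kept, with Benjamini-Hochberg adjustment and a threshold of 0.05. SE is the fold change over the root of F. Log2 CPM used a prior count of 2. Alternatives used DESeq2 1.42.0, limma 3.58.1 on log2(FPKM + 1) with a minimum mean FPKM of 0.5 and on log2(FPKM + 0.1), sva 3.50.0, other totals, filters and controls, and each mouse left out. The test was checked on simulated data with 200 changed genes. It recovered 64% of 2-fold and 90% of 4-fold changes, and 4.94% of its calls were false. Smaller changes, such as the member medians, were not simulated, so that the power to call them is not known. Shares of counts have 95% Wilson intervals. Members and lists were chosen with earlier results of these data known. Named genes were all mt- genes, complex II, isoform pairs, the 5 most abundant nuclear members, the largest calls of each complex, up to 3 calls of each other list and the most abundant marker. P-values measure the spread between these mice.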

Additional observations from a re-analysis of the deposited data

Results flagged for a closer look

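Among 104 groups of values, 11 held 1 mouse whose gap to the next was wide for the range of its group by Dixon's test, where chance gives about 1 in 20. In unaffected mouse 22, which had the highest skeletal muscle sum of the unaffected mice, *Sdha* stood high at 313 CPM, *Sdhd* at 62.6 CPM, *Ndufc2* at 39.1 CPM and *Cox7a2* at 45.6 CPM. In affected mouse 3, *mt-Atp8* stood low at 155 CPM. In unaffected mouse 25, *Atp5g2* stood high at 9.59 CPM. In unaffected mouse 21 the ratio of mt- to nuclear counts stood low at 7.08.

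Summed markers set other mice apart. B cell markers were highest in affected mouse 1 at 184 CPM, and parathyroid markers were lowest in affected mouse 4 at 46.4 CPM. Erythrocyte markers were highest in unaffected mouse 14, the mouse of the B6NTac mutant strain, at 1510 CPM. Airway and cartilage markers were highest in unaffected mouse 23 at 35200 CPM.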

How the results depend on the processing

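Among the 81 nuclear members tested, the count called higher was 0 in the main fit. It became 7 with 1 surrogate variable, 4 with DESeq2, 1 with *Ucp1* and *Acta1* as covariates and 1 with at least 10 counts required in every mouse. With 1 mouse left out it ranged from 0 to 7. Those left-out fits gave 7 without affected mouse 4, 4 without affected mouse 3 and 2 without unaffected mouse 22. The share of all genes called higher was 7.63% in the main fit, 8.81% with 1 surrogate variable and 10.4% with DESeq2. It was 6.28% with the covariates and 9.67% with the filter in every mouse. Without affected mouse 4 it was 9.38%, without affected mouse 3 5.53% and without unaffected mouse 22 6.74%. The 1 mt- member called higher became 3 with 1 surrogate variable, 5 with DESeq2, and 0 to 6 with 1 mouse left out (6 without affected mouse 3). It became 0 with the covariates, without affected mice 1 and 6 together, with upper-quartile factors, with totals without *Tg* or without *Tg* and mt- genes, with no filter, with limma on FPKM in all 3 forms, with the 6 B6NCrl mice alone and with a minimum change of 1 log2 unit. No alternative called a member lower. Totals without *Tg* moved the median of all genes to -0.13 and left the nuclear median at 0.17 and the mt- median at 0.41. No paired analysis was possible because the groups share no replicate numbers.

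The nuclear median of 0.33 reversed to -0.13 without affected mice 1 and 6 together and to -0.026 with the covariates, both added after the data were seen, and was between 0.18 and 0.48 with 1 mouse left out. The mt- median of 0.57 moved to 0.052 without mice 1 and 6 together and was between 0.37 and 0.72 with 1 mouse left out. Over 64 named genes (the genes named for being the most abundant marker of a cell type alone are not counted here) and all alternatives, 34 values reversed, 1442 kept direction and side of the threshold, 214 lost a call and 32 gained one. Without affected mice 1 and 6 together, *mt-Nd1* was at -0.14, *mt-Nd3* at -0.16, *Atp5b* at -0.19, *Cox4i1* at -0.0075, *Atp5a1* at -0.29, *Cox4i2* at 0.019, *Cox7a1* at -0.58, *Cox8b* at -0.29, *Cox6b1* at -0.011, *Atp5g1* at -0.15, *Atp5g2* at -0.057, *Sdha* at -0.12, *Sdhb* at -0.24, *Sdhc* at -0.016 and *Sdhd* at -0.13. With the covariates, *Atp5b* was at -0.071, *Atp5a1* at -0.15, *Cox7a1* at -0.63, *Cox8b* at -0.32, *Atp5g2* at -0.10, *Sdha* at -0.0090, *Sdhb* at -0.16 and *Sdhd* at -0.050. With totals without *Tg* and mt- genes, *Atp5g1* was at -0.029 and *Atp5g2* at -0.079, and without *Tg* they were at -0.050 and -0.10. *Atp5g2* was at -0.016 with upper-quartile factors. With 1 mouse left out, *Atp5g2* lay between -0.043 and 0.17, below 0 without affected mouse 1 or 5 or unaffected mouse 22 or 24, *Atp5g1* between -0.23 (without affected mouse 6) and 0.25, and *Atp5g3* between -0.33 and 0.0091 (without affected mouse 4). The cause of these changes was not tested.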
